A study of Mus musculus with 13 samples.

Results

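Of the 13 RNA-seq libraries of the study, 9 came from wild-type mouse muscle cells, 4 from dividing myoblasts and 5 from cells kept for 24 h in differentiation medium, and these 9 are described here. They were chosen by their labels alone. The other 4 libraries, from dICR/dICR cells, which lack the imprinting control region between Igf2 and H19 on both alleles, enter only where stated. The question was which transcripts change when wild-type cells leave growth medium and differentiate.

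The myoblasts were primary cultures from hind limbs of wild-type pups of mixed strain, aged 2 to 3 days. They were grown at 37 degrees under 10% CO2 in F10 medium containing calf serum (10%) and fibroblast growth factor (FGF) at 2.5 µg/ml. The myotubes were cells of the same kind after 24 h in DMEM with 1% horse serum. Both groups carry the same genotype, so the serum, the basal medium, the added FGF and the time in culture change together between them and cannot be told apart. These are bulk libraries, in which fewer cells of a type and less RNA per cell cannot be told apart. Whether the replicates come from different animals or cultures is not stated in the labels, so p-values cover only the spread among these samples, which may be technical.

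Myoblasts are the dividing precursors of skeletal muscle. When mitogens are withdrawn they leave the cell cycle, and the transcription factor myogenin, together with MyoD and MEF2 proteins, turns on the genes of the contractile apparatus. The cells then align and fuse into myotubes with many nuclei, through the membrane proteins myomaker and myomixer. Sarcomeres, the calcium release machinery and the postsynaptic proteins of the neuromuscular junction are made in the same period.

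Total counts divided the libraries into a deep set, myoblasts 1 and 2 and myotubes 1 to 3 with 35.56 to 54.54 M counts, and a shallow set, myoblasts 3 and 4 and myotubes 4 and 5 with 5.31 to 6.95 M counts (M, mega). This division at 20 M counts was read from the data and is no part of the study's design. The sets differed beyond depth: small RNA genes took 0.048 to 0.195% of a deep library and 2.89 to 4.79% of a shallow library. The Y-linked gene Ddx3y stood at 26.3 to 169 CPM in the deep and 0.150 to 0.453 CPM in the shallow libraries (CPM, counts scaled to a common library total). Depth, small RNA content and the sex of the cells cannot be told apart between the sets. The labels describe Illumina reads of 101 bases and SOLiD reads of 35 and 75 bases without tying a library to a platform. Each difference below is therefore a change within the deep set, a change within the shallow set, or the average of these changes. In the 1000 most variable genes, the first principal component (60.5% of the variance) separated the sets and the second (24.8%) separated the stages. The deep myotubes were the most variable libraries, with a median SD of 0.42 in log2 CPM against 0.11 to 0.26 in the other 3 stage-by-set groups. The myoblast markers Pax7 and Myf5 and the myotube markers Myog, Tmem8c, Myh3, Ckm and Acta1 followed the labels within both sets. Not all listed myoblast markers did so: Des and Cdh15 rose in myotubes, and Myod1 rose in the deep set but not in the shallow set.

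Differentiation for 24 h moved a large part of the transcriptome. Averaged over the sets, 2549 of 15735 genes tested (16.2%) were higher and 2674 (17.0%) lower in myotubes at a Benjamini-Hochberg adjusted p under 0.05 in edgeR's quasi-likelihood test, 33.2% of genes in all. Genes past this threshold are referred to as called. Of these, 1490 rose and 1687 fell more than 2-fold, and 194 rose and 221 fell more than 8-fold. The median log2 change of all genes was 0.03. When libraries were scaled by total counts alone this median moved to -0.23 and the split to 1731 higher and 4101 lower. With 1 library left out, the number called lay between 3055 (without myoblast 3) and 6377 (without myotube 2). It moved by more than 1.5 times on leaving out myoblast 1 (3217), 2 (3202), 3 (3055) or 4 (3266), or myotube 5 (3421).

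The sets were also read separately. Within the deep set 4674 genes were called (29.7%), 2347 higher (14.9%) and 2327 lower (14.8%). Within the shallow set 1164 were called (7.4%), 638 higher (4.05%) and 526 lower (3.34%). Both sets shared 1 estimate of the spread in this model, and fitted alone the deep set gave 2916 calls and the shallow set 3782. There were 927 genes called in both sets in the same direction, 518 higher and 409 lower, which is 19.8% of the deep and 79.6% of the shallow calls. Of the 5223 genes called on average, 5134 (98.3%) had the same sign in both sets, against 72.5% of all genes. The average is made from the changes in both sets, so genes with opposite signs are seldom called. This share is therefore no independent check of the sets. Across the 15735 genes, which are not independent replicates, the changes in the sets correlated with a Pearson r of 0.52 and a Spearman rho of 0.58. Within both sets, every myotube library lay above every myoblast library for 2778 genes (17.7%) and below for 3035 (19.3%). Over all libraries at once, all 5 myotubes were above all 4 myoblasts for 1494 genes (9.49%) and below for 1639 (10.4%). The shallow count was 2715 without myotube 2. It was far lower without myoblast 3 or 4 or myotube 5, where 1 library is left in a stage-by-set group. Such a fall cannot be told apart from a loss of precision.

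**Figure D1:**
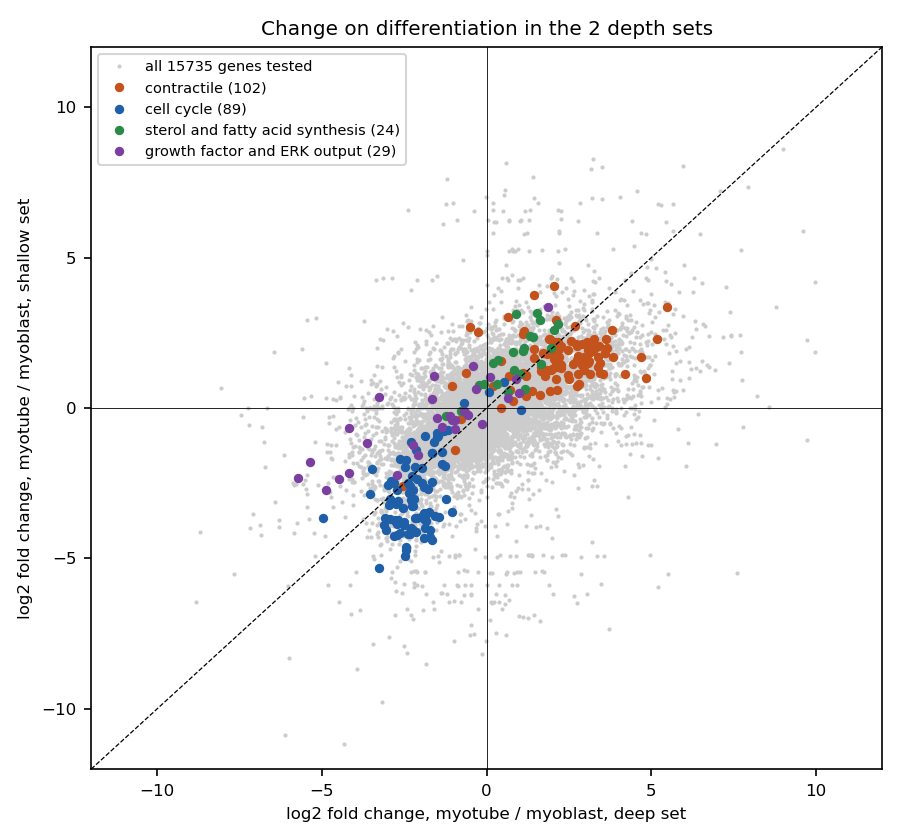
Log2 change from myoblast to myotube within the deep set (horizontal) and within the shallow set (vertical) for the 15735 genes tested (grey) and 4 gene lists (colours). The dashed line marks equal change. Of the 102 contractile genes 95 lie at positive values in the deep and 99 in the shallow set, and 79 lie below the line, with a median of 2.26 in the deep and 1.64 in the shallow set. All but 3 of the 89 cell cycle genes lie at negative values in each set.

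The gene lists used to read these changes differed widely in their share of called members. In the list of genes for G2, mitosis and the kinetochore 39 of 40 members fell, and of the contractile genes 89 of 102 rose. For FoxO targets (4 of 20 higher, 3 lower) and CDK inhibitors and related genes (4 of 21 higher, 5 lower) the shares were near those of all genes. These lists are taken in turn below, from the regulators to the structures they belong to. Each count is to be read against the 16.2% of all genes called higher and the 17.0% called lower. The counts also depend on the model: fits without a term for the set, and over all 13 libraries, gave fewer calls for most lists, as they did for all genes (2534 and 3158 called).

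**Figure D2:**
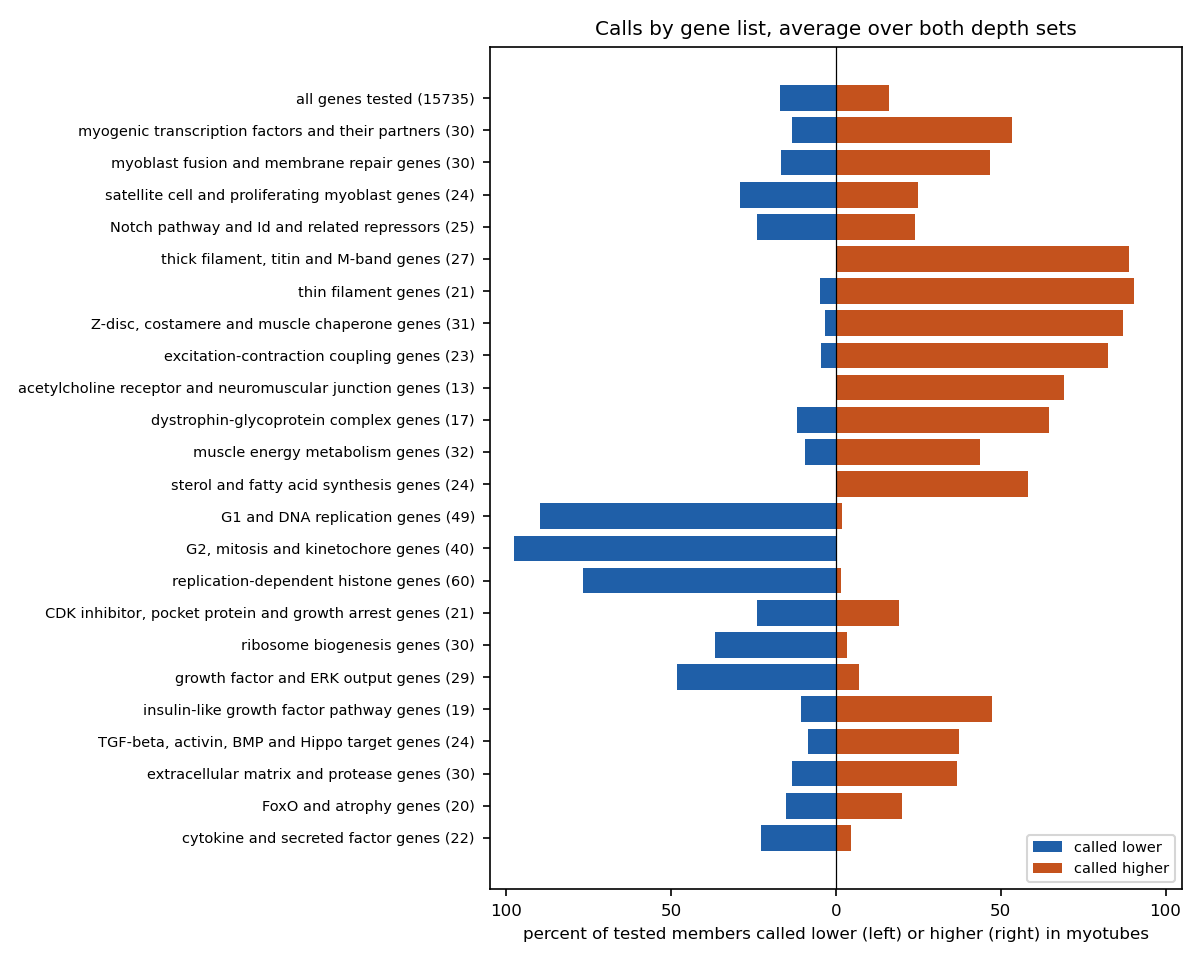
Percent of the tested members of each gene list called lower (left) and higher (right) in myotubes, averaged over both sets, at an adjusted p under 0.05, with all genes tested for comparison. The contractile lists reach far to the right and the cell cycle and histone lists far to the left of the 16.2% and 17.0% of all genes.

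Myogenic regulators rose. Of 30 transcription factors and partners tested, 16 were called higher and 4 lower, with a median log2 change of 0.77. These counts were 9 and 2 without a term for the set. Within the deep set 17 were called higher and 2 lower, with a median of 1.16. Within the shallow set 7 were called higher and 3 lower, with a median of 0.43. Myog, which encodes myogenin, stood at 140 and 135 CPM in the deep myoblasts and at 6150, 2408 and 3953 CPM in the deep myotubes. In the shallow set it stood at 1152 and 1173 CPM in myoblasts and at 4117 and 3345 CPM in myotubes. All 5 myotube libraries were above all 4 myoblast libraries, and the shallow myoblasts were well above the deep ones. The log2 change averaged 3.30 ± 0.31 (SE; edgeR adjusted p = 0.000165), with 4.92 in the deep and 1.68 in the shallow set.

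The MEF2 factors, which act with myogenin on muscle promoters, rose as well. Mef2c stood at 132 and 121 CPM in the deep and 343 and 329 CPM in the shallow myoblasts, and at 1052, 817 and 1015 CPM in the deep and 1329 and 2035 CPM in the shallow myotubes. The stages did not overlap, and the log2 change was 2.62 ± 0.19 (edgeR adjusted p = 6.94e-05). Mef2a rose by 1.63 ± 0.22 and Mef2d by 1.57 ± 0.35 on the log2 scale. Hdac9, a class IIa histone deacetylase that binds MEF2, rose from 5.36 to 11.6 CPM over the myoblasts to 28.6 to 62.7 CPM over the myotubes, a log2 change of 2.59 ± 0.27. Csrp3, the muscle LIM protein, rose by 2.47 ± 0.20, and Smyd1, a methyltransferase needed for myofibril assembly, by 2.16.

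Myod1, which encodes the determination factor MyoD, was not called. It stood at 285 and 329 CPM in the deep myoblasts and 739, 702 and 1298 CPM in the deep myotubes. In the shallow set it stood at 428 and 453 CPM in myoblasts and 518 and 246 CPM in myotubes. The stages were apart in the deep set and overlapped in the shallow set, with an average log2 change of 0.68 ± 0.27 (edgeR adjusted p = 0.0825). Called members that fell included Tcf3, the E-protein partner of MyoD (-1.23 ± 0.18), Eya1, a cofactor in muscle determination (-1.05 ± 0.15), and Hdac7 (-1.38 ± 0.46). The Hdac7 call was lost without any of the 4 myoblasts or of myotubes 3, 4 and 5.

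**Figure D3:**
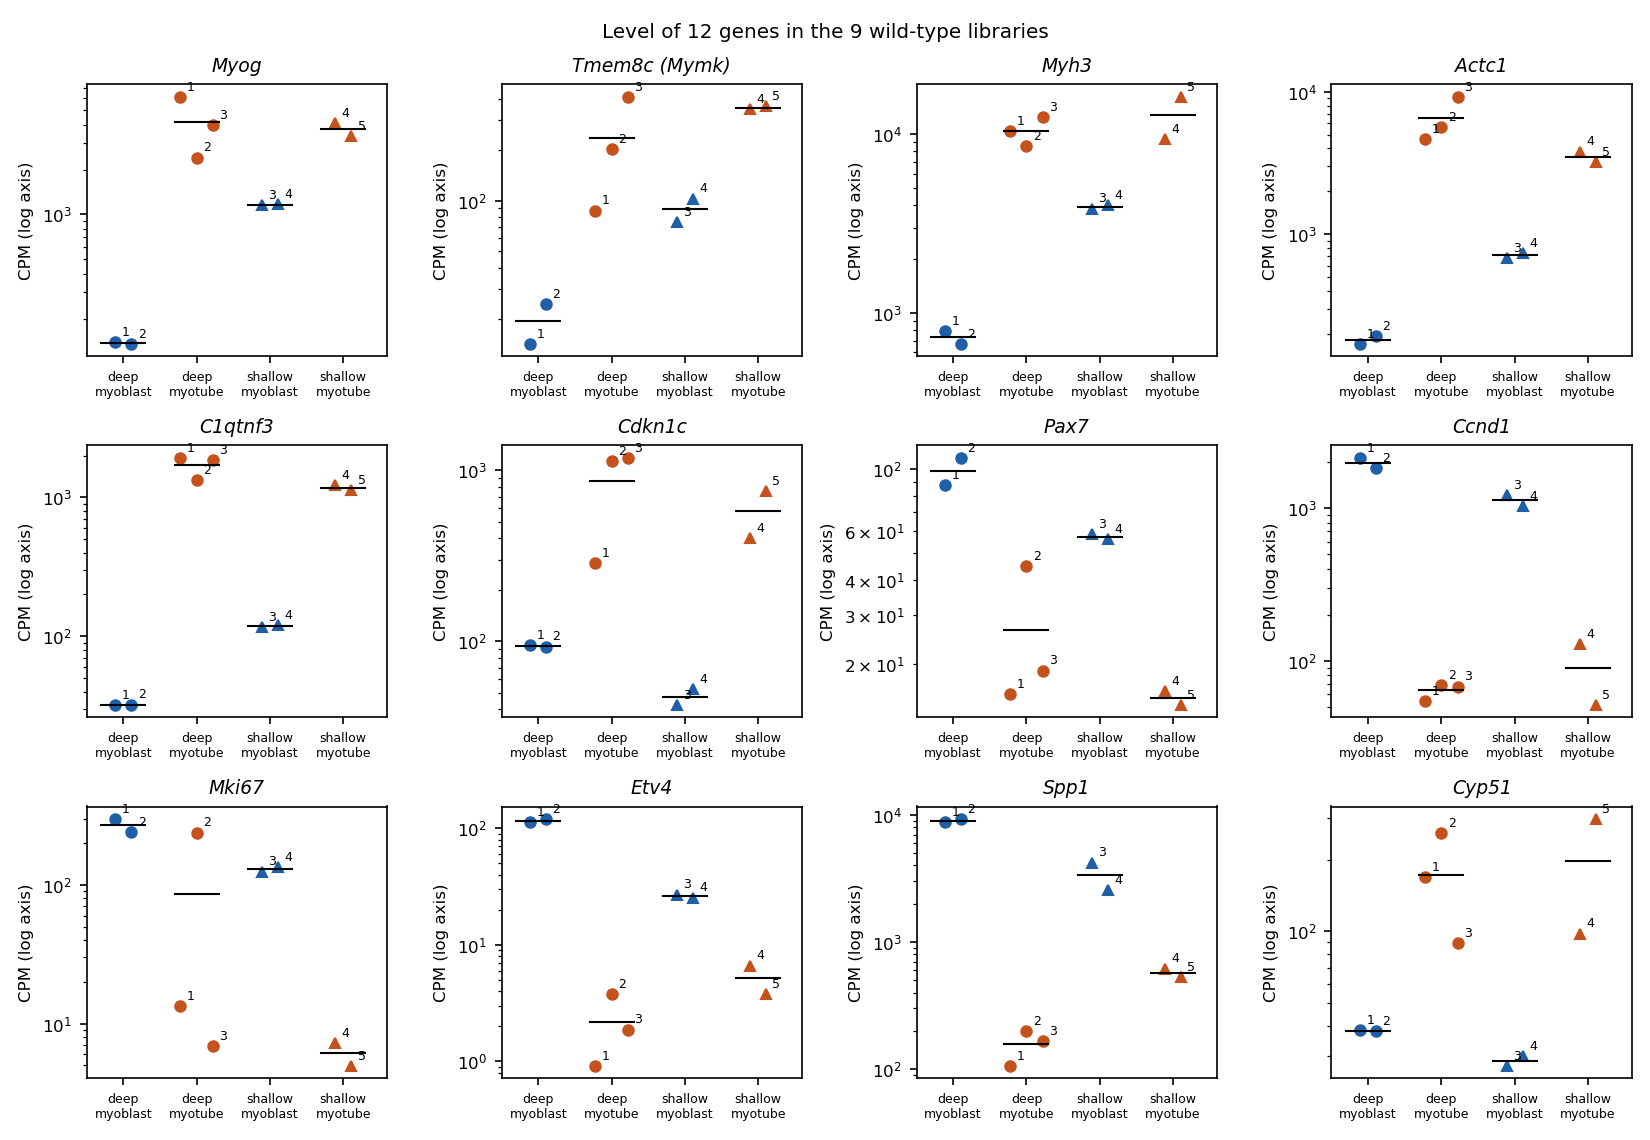
Level in CPM (logarithmic axis) of 12 genes in each of the 9 libraries, myoblasts in blue and myotubes in orange, deep libraries as circles and shallow ones as triangles, numbered by replicate, with a bar at the mean of each stage-by-set group. Tmem8c encodes myomaker. Myog, Actc1 and C1qtnf3 are higher in every myotube than in any myoblast library, and Ccnd1 and Spp1 are lower in every myotube; Mki67 in myotube 2 (237 CPM) sits among the myoblasts.

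Genes of the fusion machinery rose in part. Of 30 fusion and membrane repair genes, 14 were called higher and 5 lower, with a median log2 change of 0.71. They were 8 and 2 without a term for the set. Tmem8c, which encodes the fusogen myomaker, stood at 14.1 and 24.3 CPM in the deep myoblasts and 87.1, 201 and 412 CPM in the deep myotubes. In the shallow set it stood at 74.8 and 103 CPM in myoblasts and 347 and 363 CPM in myotubes. Within each set the stages did not overlap, and the log2 change was 2.80 ± 0.43 (edgeR adjusted p = 0.00169). Gm7325, the symbol of the myomixer gene in this table, rose from 5.70 and 6.50 CPM to 47.8 to 129 CPM in the deep set and from 60.1 and 69.7 CPM to 198 and 110 CPM in the shallow set. Its log2 change was 2.43 ± 0.35 (edgeR adjusted p = 0.00126).

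Other fusion genes differed in direction. Cav3, the muscle caveolin, rose by 2.78 ± 0.16 on the log2 scale, and Dysf, the membrane repair protein dysferlin, by 2.33 ± 0.27. The M-cadherin gene Cdh15, a cell adhesion protein of myoblasts, rose by 1.19 ± 0.15. Dock1, an activator of Rac, fell by 1.19 ± 0.22, and its relative Dock5 fell by 0.93. The annexin genes Anxa1 and Anxa5, of calcium-dependent phospholipid-binding proteins, fell by 1.08 ± 0.21 and 1.12 ± 0.24. Kirrel, the fifth called lower, stood at 81.6 CPM in myotube 2 and 18.0 to 24.5 CPM in the other myotubes. Its call (-1.33 ± 0.42) was lost without any of the myoblasts or of myotubes 3, 4 and 5.

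Contractile genes rose nearly throughout. Of 102 tested members of the thick filament, thin filament, Z-disc and excitation-contraction coupling lists, 89 were called higher and 3 lower, with a median log2 change of 2.08 against 0.03 for all genes. By list the calls were 24 of 27 thick filament, 19 of 21 thin filament, 27 of 31 Z-disc and 19 of 23 coupling genes. Within the deep set 75 were called higher and within the shallow set 55, of which 52 in both, and each set fitted alone gave 72 and 87. For 81 members the stages did not overlap within either set, with myotubes higher. The mean log2 CPM of the 102 genes was 4.99 and 4.96 in the deep and 6.56 and 6.64 in the shallow myoblasts. In myotubes it was 6.89, 6.88 and 7.47 in the deep and 7.85 and 8.36 in the shallow set. The shallow myoblasts lay nearer to the deep myotubes than the deep myoblasts did. Of the 102 members, 94 were higher in shallow than in deep myoblasts, and 79 had a lower log2 change in the shallow set. Without a term for the set 48 members were called higher, and 59 over all 13 libraries.

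In the thick filament, the embryonic heavy chain Myh3 stood at 791 and 670 CPM in the deep and 3825 and 4006 CPM in the shallow myoblasts. In myotubes it reached 10390, 8534 and 12414 CPM in the deep and 9349 and 16167 CPM in the shallow set. All myotubes were above all myoblasts, and the log2 change was 2.77 ± 0.28 (edgeR adjusted p = 0.000243). The perinatal heavy chain Myh8 rose by 2.51 ± 0.56 and the adult fast chain Myh1 by 2.15 ± 0.43. These heavy chains are close in sequence, and the treatment of reads shared between them is not known. Ttn, which encodes the giant spring protein titin, had the largest gain in CPM, a scale not corrected for gene length. It stood at 1579 to 11694 CPM over the myoblasts and 18581 to 66753 CPM over the myotubes (log2 change 2.67 ± 0.45). The change was 4.21 in the deep and 1.13 in the shallow set, where Ttn was not called. Myom2, an M-band protein, rose by 3.20 ± 0.31, and the myosin chaperone Unc45b by 3.19 ± 0.22. Mybpc2, the fast myosin binding protein C, stood at 22.0 CPM in myotube 5 against at most 3.32 CPM elsewhere. Its log2 change was 3.06 ± 0.62, and 2.10 and still called without that library, and the call was lost without a term for the set.

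In the thin filament, the cardiac actin gene Actc1, a sarcomeric actin that early myotubes express, stood at 169 and 192 CPM in the deep and 680 and 736 CPM in the shallow myoblasts. It stood at 4640, 5652 and 9215 CPM in the deep and 3801 and 3195 CPM in the shallow myotubes. All myotubes were well above all myoblasts, with myotube 3 the highest, and the log2 change was 3.74 ± 0.28 (edgeR adjusted p = 7.51e-05). The skeletal actin gene Acta1 rose by 2.55 ± 0.24. It stood at 8106, 6317 and 8277 CPM in the deep and 8154 and 10705 CPM in the shallow myotubes, above Actc1 in all but myotube 3. Actin genes share long identical stretches, so the division of reads among them is uncertain. The troponin and tropomyosin genes tested were called higher except Tpm3 (log2 change -0.16), for instance Tnnt3 by 1.97 ± 0.18 and Tpm2 by 1.80 ± 0.19. Klhl41, a kelch protein that stabilises nebulin, stood at 70.2 and 63.8 CPM in the deep and 264 and 287 CPM in the shallow myoblasts. It stood at 856, 414 and 734 CPM in the deep and 1084 and 1170 CPM in the shallow myotubes, with no overlap. Its log2 change was 2.67 ± 0.23 (edgeR adjusted p = 0.000125), close to that of the leiomodin gene Lmod3, a nucleator of actin filaments (2.66 ± 0.15).

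Outside the filaments, Ldb3, a Z-disc adaptor, rose by 2.71 ± 0.31 and Des, the intermediate filament desmin, by 1.50 ± 0.19. The calcium channel genes Cacna1s, the voltage sensor, and Ryr1, the release channel, rose by 2.78 ± 0.21 and 2.12 ± 0.28. Ryr3, a second release channel that is abundant in immature muscle, rose from 1.65 to 5.86 CPM to 41.7 to 112 CPM (log2 change 4.42 ± 0.30; edgeR adjusted p = 5.37e-05). The triadin gene Trdn rose by 2.97 ± 0.18 and the calcium-binding protein gene Hrc by 2.82 ± 0.24. Only 3 of the 102 members were called lower. They were Nebl, which encodes nebulette of cardiac muscle and stayed at or under 2.89 CPM, Asph (-0.57 ± 0.16) and Ankrd1 (-1.18 ± 0.30), a stretch-responsive ankyrin protein. The Nebl call was lost without myoblast 3 or myotube 4 or 5. The Ankrd1 call was lost without myoblast 1 or 3, and that of Asph without any myoblast or myotube 4 or 5.

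Promoter sequence was read for the contractile, junction, fusion, cell cycle and sterol lists, to show the letters that factors of muscle and of the cell cycle are known to recognise. RefSeq promoters of GRCm38.p6, 250 bases before to 50 after the annotated start, were found for 75 of the 102 contractile genes. The E-box CAGCTG, searched on both strands like all motifs here, was present in 30 of them (40.0%), against 18.3% of 27025 genes with a promoter. The MEF2 motif was present in 8 (10.7%, against 0.636%) and the CArG box in 7 (9.33%, against 1.81%). The lists differed: CAGCTG was in 39.1% of thick filament, 52.9% of thin filament and 53.8% of coupling promoters, but in 22.7% of Z-disc promoters, near the share of all genes, and 5 of the 8 MEF2 motifs were in the Z-disc list. Of 21 fusion promoters 5 held CAGCTG (23.8%), 1 the CArG box and 0 the MEF2 motif. A match is a description of the letters and not a bound site. The counts were made on another build (mm9), so these positions apply to the promoter table alone. The 250 bases before the start are shown for Klhl41 (chr2:69669870-69670119, plus strand), with the E-box and, nearer the start, the MEF2 motif in capitals, and for Actc1 (chr2:114052876-114053125, minus strand), with the CArG box in capitals.
Klhl41: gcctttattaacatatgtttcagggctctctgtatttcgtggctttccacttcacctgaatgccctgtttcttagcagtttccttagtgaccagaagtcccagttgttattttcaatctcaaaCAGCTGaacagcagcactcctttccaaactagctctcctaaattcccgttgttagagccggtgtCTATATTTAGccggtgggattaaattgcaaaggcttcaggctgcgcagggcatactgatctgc
Actc1: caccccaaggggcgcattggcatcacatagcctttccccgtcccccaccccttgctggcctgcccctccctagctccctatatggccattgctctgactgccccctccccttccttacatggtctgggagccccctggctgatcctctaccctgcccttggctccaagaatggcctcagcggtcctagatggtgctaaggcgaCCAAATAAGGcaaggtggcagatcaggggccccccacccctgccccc

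Genes of the neuromuscular junction rose more modestly. Of 13 tested, 9 were called higher and none lower (also 0 at an unadjusted p under 0.05 in edgeR, and 0 in DESeq2 and limma voom), with a median log2 change of 1.05. Within the shallow set 1 was called, and 8 when that set was fitted alone. The number called higher was 4 without a term for the set. Chrna1, the acetylcholine receptor alpha subunit, stood at 687 and 781 CPM in the deep and 1172 and 1224 CPM in the shallow myoblasts. It stood at 1867, 1335 and 2852 CPM in the deep and 2024 and 1694 CPM in the shallow myotubes. All myotubes were above all myoblasts, with a log2 change of 1.05 ± 0.24 (edgeR adjusted p = 0.0108), but the call was lost without myoblast 1, 3 or 4. The fetal gamma subunit gene Chrng rose by 1.31 ± 0.24, with 2.27 in the deep and 0.36 in the shallow set, where it was not called. The Chrng call was lost without a term for the set and over all 13 libraries. The adult epsilon subunit gene Chrne was at or near 0 CPM in all libraries except 2.38 CPM in myotube 5. Lrp4, the agrin receptor, rose by 1.96 ± 0.24, the adaptor gene Dok7 by 1.76 ± 0.19 and the kinase gene Musk by 1.33 ± 0.26. Agrn, which encodes agrin itself, was not called (-0.94 ± 0.48). Of the 9 members with a promoter, 4 (44.4%) held CAGCTG and 0 the MEF2 motif or the CArG box. Chrna1 (chr2:73580339-73580588, minus strand) held it at 2 places, shown in capitals.
Chrna1: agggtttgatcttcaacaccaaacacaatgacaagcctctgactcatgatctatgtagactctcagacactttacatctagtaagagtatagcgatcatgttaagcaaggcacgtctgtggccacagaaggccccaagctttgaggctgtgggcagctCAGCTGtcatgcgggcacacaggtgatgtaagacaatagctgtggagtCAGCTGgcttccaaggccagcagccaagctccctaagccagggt

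Of 17 genes of the dystrophin complex, which ties the cytoskeleton to the matrix, 11 rose and 2 fell, with a median log2 change of 0.98. Without a term for the set, and over all 13 libraries, 7 rose. Dmd, which encodes dystrophin, stood at 20.7 and 18.8 CPM in the deep and 65.2 and 75.7 CPM in the shallow myoblasts, and at 235, 138 and 374 CPM in the deep and 257 and 342 CPM in the shallow myotubes. The stages did not overlap, and the log2 change was 2.87 ± 0.29 (edgeR adjusted p = 0.000227). The syntrophin gene Sntb1 rose by 2.59 ± 0.20. The widely expressed relatives Sgce (-1.04 ± 0.33) and Sntb2 (-0.90 ± 0.22) were the members called lower. The Sgce call was lost without any myoblast or myotube 1, 4 or 5, and the Sntb2 call without myoblast 1 or 3 or myotube 4. The Sgca call (0.76 ± 0.20) was lost without any myoblast or myotube 4.

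Energy metabolism moved in part. Of 32 genes 14 were called higher and 3 lower, with a median log2 change of 0.78. Without a term for the set 3 were called higher and over all 13 libraries 4, and with scaling by total counts alone 7 were called lower. Ckm, the muscle creatine kinase, stood at 2.53 and 1.98 CPM in the deep myoblasts and 49.5, 90.9 and 63.5 CPM in the deep myotubes. In the shallow set it stood at 63.9 and 71.5 CPM in myoblasts and 197 and 556 CPM in myotubes. The stages were apart within each set, although the shallow myoblasts overlapped the deep myotubes, and the log2 change was 3.69 ± 0.34 (edgeR adjusted p = 0.000166). Slc2a4, the insulin-responsive glucose transporter GLUT4, rose by 2.40 ± 0.30, while the basal transporter gene Slc2a1 fell by 1.95 ± 0.19. Glycogen and glycolysis genes of the muscle type rose, with Pygm at 1.54 ± 0.27, Pfkm at 1.50 ± 0.20 and Pgam2 at 1.80 ± 0.21. Hk1 fell by 1.01 ± 0.14 and Ldhb by 1.36 ± 0.19. The myoglobin gene Mb rose by 1.81 ± 0.43, a call lost without myoblast 1, 3 or 4 or myotube 5, and Ckb by 1.25 ± 0.32, lost without any myoblast or myotube 5. The calls for Ckm, Mb, Ckb and Ldhb were lost without a term for the set and over all 13 libraries, and that for Slc2a4 without a term for the set. Ppargc1a, a regulator of mitochondrial genes, was not called (-0.65 ± 0.26).

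Sterol synthesis genes rose. Of 24 sterol and fatty acid genes 14 were called higher and none lower (edgeR; 1 at an unadjusted p under 0.05, 1 in DESeq2 and 0 in limma voom), with a median log2 change of 1.21. Cyp51, the lanosterol demethylase, stood at 38.3 and 38.0 CPM in the deep and 27.1 and 29.8 CPM in the shallow myoblasts. It stood at 169, 258 and 89.1 CPM in the deep and 97.9 and 298 CPM in the shallow myotubes. All myotubes were above all myoblasts, with myotubes 2 and 5 the highest, and the log2 change was 2.49 ± 0.39 (edgeR adjusted p = 0.00198). Sc4mol, the next demethylase of the pathway, rose by 2.32 ± 0.32 and Fdps, which makes farnesyl diphosphate, by 1.98 ± 0.28. The fatty acid genes Fasn (-0.44 ± 0.25), Acaca (-0.75 ± 0.27) and Acly (-0.40 ± 0.18) were not called, whereas Scd1 rose by 2.35 ± 0.67, a call lost without any myoblast or myotube 5. Hmgcs1 was listed at 0 in every library. In 21 of the 24 genes the log2 change was higher in the shallow set than in the deep set. Within the shallow set 8 were called higher, and within the deep set 5 were called higher and 1 lower. The count was 9 without myoblast 3, without myoblast 4 or without myotube 5, and 7 without a term for the set. The media of the stages differ in serum, and serum and stage cannot be told apart in this result. A CCAAT box was found in 13 of 14 promoters of the list (92.9%), against 41.1% of all genes, and is shown in capitals for Cyp51 (chr5:4104698-4104947, minus strand).
Cyp51: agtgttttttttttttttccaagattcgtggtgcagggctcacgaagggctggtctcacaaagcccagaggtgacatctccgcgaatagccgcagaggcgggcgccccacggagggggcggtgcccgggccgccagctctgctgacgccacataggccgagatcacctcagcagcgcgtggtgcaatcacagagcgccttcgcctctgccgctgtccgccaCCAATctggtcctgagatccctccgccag

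Cell cycle genes fell, with myotube 2 standing apart. Of 89 members, 83 were called lower and 1 higher, with a median log2 change of -2.72. Ccnd1, the growth factor-responsive cyclin D1, stood at 2124 and 1815 CPM in the deep and 1214 and 1027 CPM in the shallow myoblasts. It stood at 54.2, 69.4 and 67.5 CPM in the deep and 128 and 51.2 CPM in the shallow myotubes. The highest myotube, myotube 4, was far below every myoblast, and the log2 change was -4.30 ± 0.29 (edgeR adjusted p = 5.15e-05), a call kept on leaving out any library. Ccnd3, the D-type cyclin that persists in muscle, was not called (0.48 ± 0.18, edgeR adjusted p = 0.0683). The partner kinase gene Cdk4 fell by 1.58 ± 0.23.

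Of the 49 G1 and DNA replication genes 44 fell, with a median of -2.26. Prim1, which encodes the small primase subunit, stood at 63.4 and 69.2 CPM in the deep and 21.1 and 18.9 CPM in the shallow myoblasts, and at 3.00, 19.6 and 1.27 CPM in the deep and 1.36 and 0.992 CPM in the shallow myotubes. Within each set myotubes were lower, while myotube 2 was level with the shallow myoblasts. The log2 change was -3.56 ± 0.76 (edgeR adjusted p = 0.0079), it was -4.52 without myotube 2, and the call was lost without myotube 5. The helicase genes Mcm3 and Mcm6 fell by 3.26 ± 0.81 and 3.25 ± 0.80, and Rrm2, of ribonucleotide reductase, by 2.72 ± 0.39. E2f2 was the member called higher (0.70 ± 0.17), a call lost without myoblast 2, 3 or 4 or myotube 5. Without myotube 5 the list count fell to 24.

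Of the 40 genes of G2, mitosis and the kinetochore 39 fell, with a median of -2.96, the other being Cdc25c (-2.53 ± 0.93). Mki67, the proliferation marker Ki-67, stood at 299 and 239 CPM in the deep and 125 and 134 CPM in the shallow myoblasts. It stood at 13.4, 237 and 6.89 CPM in the deep and 7.25 and 4.96 CPM in the shallow myotubes. Myotube 2 lay just under the deep myoblasts, and the other 4 myotubes lay far below all myoblasts. The log2 change was -3.02 ± 0.95 (edgeR adjusted p = 0.0378) with all libraries and -4.55 without myotube 2, and the call was lost without any myoblast or myotube 4 or 5. Aurkb, a mitotic kinase, fell by 4.29 ± 0.99, the cyclin-dependent kinase gene Cdk1 by 3.31 ± 0.67 and the topoisomerase gene Top2a by 3.48 ± 0.86. The Aurkb call was lost without myotube 4 or 5.

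The mean log2 CPM of the 40 mitosis genes showed the same split. It was 6.55 and 6.52 in the deep and 5.54 and 5.47 in the shallow myoblasts, and 2.93, 5.62 and 1.47 in the deep and 2.16 and 1.45 in the shallow myotubes. Within the deep set 8 of the 40 were called lower and within the shallow set 0 in edgeR (37 at an unadjusted p under 0.05, 26 in DESeq2 and 0 in limma voom). Without myotube 2 these counts were 40 and 39, and 40 on average with a median of -4.01. The shallow set fitted alone, in which myotube 2 takes no part, gave 39, and the deep set alone gave 0. Leaving out another library lowered the average count to 23, 22, 17 and 20 (myoblasts 1 to 4), 12 (myotube 4) and 4 (myotube 5), and it was 8 without a term for the set and 15 over all 13 libraries. The same holds for the 89 cell cycle genes together, with 52 lower without myoblast 3, 44 without myotube 4, 28 without myotube 5 and 85 without myotube 2, and 37 and 54 in those other fits.

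Replication-dependent histone genes fell with them. Of 60 tested 46 were called lower and 1 higher, with a median of -2.76, and 53 were lower without myotube 2. The count was 26, 22 and 26 without myoblast 1, 3 or 4, 17 without myotube 4 and 12 without myotube 5. It was 6 without a term for the set and 12 over all 13 libraries. Hist1h1b, a linker histone gene, stood at 157 to 191 CPM in the myoblasts, at 85.3 CPM in myotube 2 and at 2.31 to 17.2 CPM in the other myotubes (log2 change -3.71 ± 0.84). Hist2h2be, the member called higher, stayed between 0.890 and 3.47 CPM. Histone genes are near-identical copies, and the division of reads among them is uncertain.

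**Figure D4:**
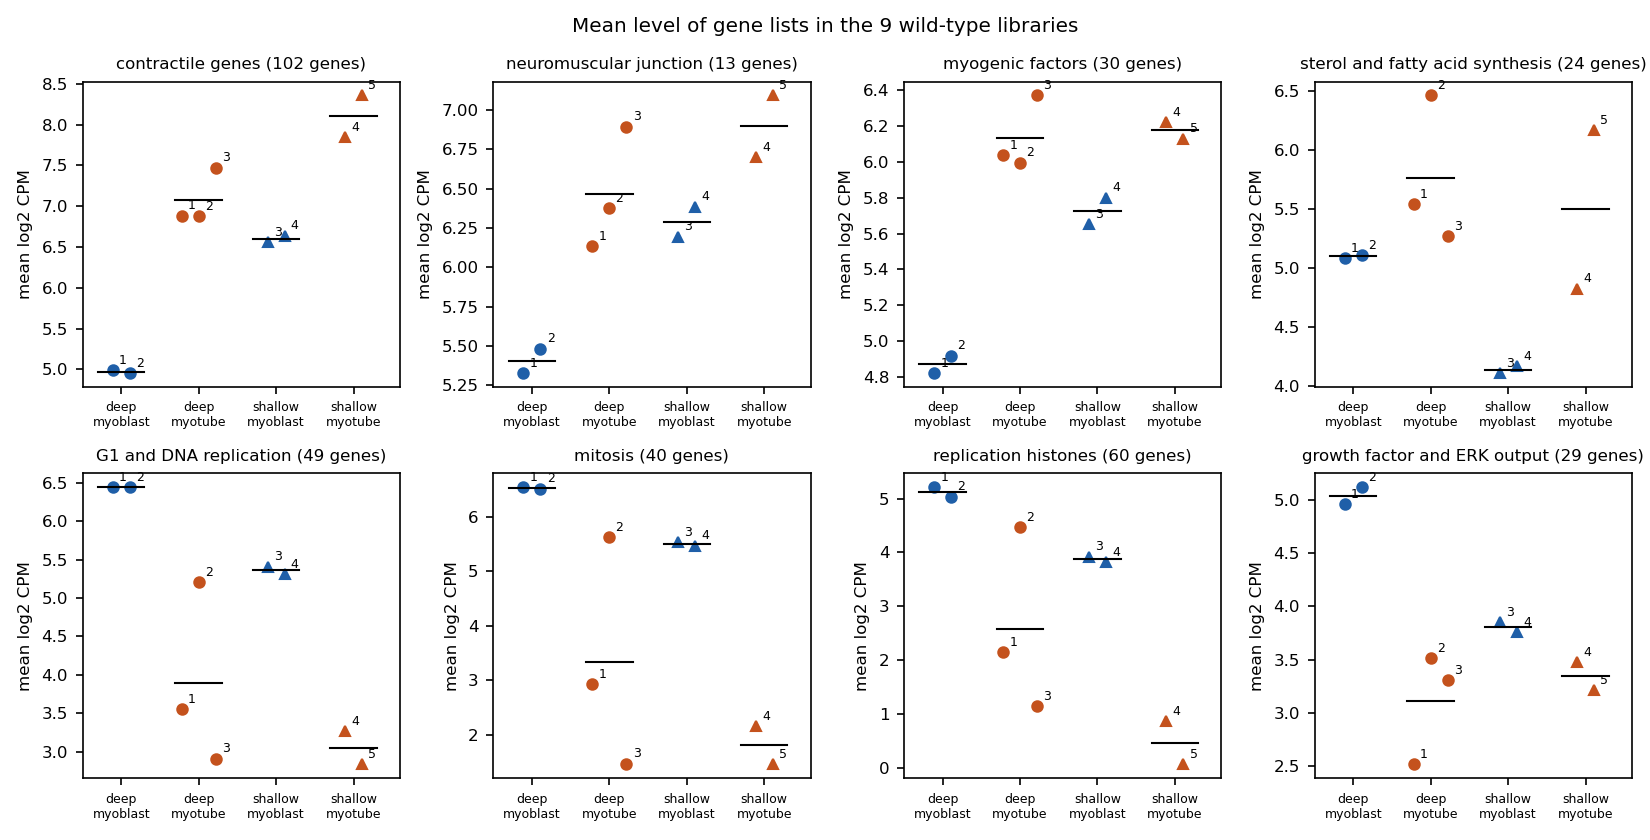
Mean log2 CPM of the members of 8 gene lists in each of the 9 libraries, myoblasts in blue and myotubes in orange, deep libraries as circles and shallow ones as triangles, with a bar at the mean of each stage-by-set group. For the mitosis genes myotube 2 (5.62) lies between the shallow myoblasts, 5.47 and 5.54, and the deep ones, 6.52 and 6.55, while the other myotubes lie between 1.45 and 2.93.

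The promoters of the cell cycle lists were searched for the letters known from cell cycle regulation. The CHR form TTTGAA was found in 24 of 34 mitosis promoters (70.6%), against 20.2% of all genes and 17.9% of the 39 G1 and replication promoters. The E2F form TTCCCGC was found in 16 of those 39 (41.0%), against 5.29% of all genes, and in 0 of the 34 mitosis promoters. A CCAAT box was found in 73.5% and 66.7% of the lists, against 41.1%. Mki67 (chr7:135716380-135716629, minus strand) is shown for the mitosis list, with 2 TTTGAA and 3 CCAAT boxes, 1 of them on the opposite strand, in capitals. Prim1 (chr10:128014965-128015214, plus strand) is shown for the replication list, with TTCCCGC and the CCAAT box that overlaps its last base in capitals.
Mki67: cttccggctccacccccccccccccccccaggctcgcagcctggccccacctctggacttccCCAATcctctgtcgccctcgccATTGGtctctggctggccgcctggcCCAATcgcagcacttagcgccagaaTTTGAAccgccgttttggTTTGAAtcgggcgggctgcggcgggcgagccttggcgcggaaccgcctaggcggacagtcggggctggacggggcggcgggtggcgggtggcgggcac
Prim1: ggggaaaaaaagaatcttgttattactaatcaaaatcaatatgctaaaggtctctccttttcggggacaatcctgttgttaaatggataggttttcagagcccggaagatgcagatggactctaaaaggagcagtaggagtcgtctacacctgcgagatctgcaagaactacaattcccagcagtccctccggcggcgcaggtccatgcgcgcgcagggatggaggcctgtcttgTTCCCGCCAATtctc

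Of 21 CDK inhibitor, pocket protein and growth arrest genes, which hold cells out of the cycle, 4 rose and 5 fell, with a median of 0.02. These shares are near those of all genes, and 3 and 2 fell without a term for the set and over all 13 libraries. Cdkn1c, which encodes the inhibitor p57, stood at 94.7 and 92.9 CPM in the deep and 42.4 and 52.5 CPM in the shallow myoblasts. It stood at 285, 1130 and 1181 CPM in the deep and 399 and 756 CPM in the shallow myotubes. The stages did not overlap, and the log2 change was 3.41 ± 0.44 (edgeR adjusted p = 0.000757). Cdkn1a, which encodes p21, rose by 1.30 ± 0.19 and the retinoblastoma gene Rb1 by 1.86 ± 0.25. Its relative Rbl1 fell by 2.46 ± 0.60, a call lost without myotube 4 or 5. Cdkn2b fell by 1.30 ± 0.25. Cdkn2a fell by 0.89 ± 0.23, a call lost without any myoblast or myotube 5. Cdkn1b, which encodes p27, was not called (0.58 ± 0.20).

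Genes known as output of growth factors through the ERK kinases fell in part. Of 29 genes 14 were called lower and 2 higher, with a median of -0.73. Etv4, a transcription factor induced by FGF, stood at 112 and 121 CPM in the deep and 27.0 and 25.4 CPM in the shallow myoblasts. It stood at 0.914, 3.76 and 1.87 CPM in the deep and 6.64 and 3.77 CPM in the shallow myotubes. All myotubes were below all myoblasts, with a log2 change of -4.02 ± 0.39 (edgeR adjusted p = 0.000187). The feedback phosphatase genes Dusp4 and Dusp6 fell by 2.47 ± 0.14 and 2.38 ± 0.20, and the feedback inhibitor gene Spry2 by 1.81 ± 0.15. Hmga2, a chromatin protein of growing cells, fell from 738 and 800 CPM to 19.04 to 35.4 CPM in the deep set and from 78.1 and 85.1 CPM to 10.9 and 13.7 CPM in the shallow set (log2 change -3.80 ± 0.21; edgeR adjusted p = 3.26e-05). The immediate early genes Fos (0.93 ± 0.37) and Egr1 (0.57 ± 0.52) were not called. The members called higher were Fosl2 (0.74 ± 0.13) and Egr2, whose call was lost without any myoblast or myotube 5. In 26 of the 29 genes the log2 change was lower in the deep set than in the shallow set. Removal of FGF and of serum came together with differentiation, and their parts cannot be told apart.

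Of 30 ribosome biogenesis genes 11 were called lower and 1 higher, with a median of -0.21. The number called lower was 2 without a term for the set and 2 over all 13 libraries, 17 with scaling by total counts alone, and 7 without myoblast 1, myoblast 4 or myotube 5. Nhp2, a core protein of small nucleolar particles, fell by 1.31 ± 0.17, the nucleophosmin gene Npm1 by 1.18 ± 0.17 and the fibrillarin gene Fbl by 1.10 ± 0.15. The Npm1 and Fbl calls were lost in the fits without a term for the set and over all 13 libraries, and the Nhp2 call was kept. Rrp12, a ribosome export factor, rose by 1.32 ± 0.21. The level of Npm1 was 1988 and 2518 CPM in the deep and 141 and 125 CPM in the shallow myoblasts, and it has processed copies in the genome, so its share of reads is uncertain. Polr1a and Polr1b, of RNA polymerase I, had log2 changes of 0.00 and 0.07 and were not called.

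Of 24 genes of satellite cells and proliferating myoblasts 7 fell and 6 rose, with a median of 0.39. Pax7, the factor that marks muscle stem cells, stood at 87.8 and 110 CPM in the deep and 58.4 and 56.2 CPM in the shallow myoblasts. It stood at 15.6, 45.1 and 18.96 CPM in the deep and 16.0 and 14.3 CPM in the shallow myotubes. All myotubes were below all myoblasts, with myotube 2 the highest of them, and the log2 change was -1.91 ± 0.31 (edgeR adjusted p = 0.00212). Myf5, an early determination factor, fell by 2.11 ± 0.33, the adhesion gene Vcam1 by 2.32 ± 0.23, the syndecan gene Sdc3 by 2.14 ± 0.34 and the hepatocyte growth factor receptor gene Met by 1.57 ± 0.19. The members that rose were Erbb3 (2.98 ± 0.29), a neuregulin receptor, Spry1 (2.38 ± 0.24), an inhibitor of growth factor signals, Ncam1 (2.36 ± 0.21), Itga7 (1.39 ± 0.18), Cdh15 and Vgll3. Ncam1, Itga7 and Cdh15 encode adhesion proteins that muscle fibres also carry.

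In the Notch and Id list 6 of 25 rose and 6 fell, with a median of 0.01. All 4 Id genes, whose proteins hold E-proteins away from MyoD, were among those that fell. Id3 stood at 129 and 176 CPM in the deep and 323 and 305 CPM in the shallow myoblasts, and at 47.1, 24.5 and 28.4 CPM in the deep and 87.4 and 4.96 CPM in the shallow myotubes. The stages did not overlap, and the log2 change was -2.48 ± 0.60 (edgeR adjusted p = 0.0136), or -4.09 without myotube 4. Id2 fell by 1.42 ± 0.27. Id1 fell by 1.75 ± 0.53, a call lost without any myoblast or myotube 3, with a change of -2.90 without myotube 4. The call for Id4 (-1.84 ± 0.43) was lost without myoblast 3, and without myotube 4 its change was -2.46. Snai2, a zinc finger repressor that competes with MyoD at E-boxes, fell by 2.85 ± 0.44. Bhlhe41, a basic helix-loop-helix repressor, rose by 2.57 ± 0.29. Heyl, a Notch target, stood at 49.6 CPM in myotube 2 against at most 12.3 CPM elsewhere. Its log2 change of 4.05 ± 1.05 was called, and was 2.69 and still called without myotube 2, but the call was lost without any myoblast or myotube 5 and in 5 other fits, among them the fit without a term for the set and that over all 13 libraries. The count of members called higher was 3 without myoblast 1, 3 or 4 or without myotube 5, and that of members called lower was 10 without myotube 2. Without a term for the set 2 were called higher and 4 lower.

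Among 19 insulin-like growth factor genes 9 rose and 2 fell, with a median of 0.40. Within the deep set 8 were called higher and 2 lower, and within the shallow set 1 higher and 2 lower, with a shallow median of 0.07. Igf2, the fetal growth factor, stood at 180 and 303 CPM in the deep and 1111 and 1433 CPM in the shallow myoblasts, and at 1291, 1464 and 2272 CPM in the deep and 2046 and 2481 CPM in the shallow myotubes. Within each set the stages did not overlap, and the log2 change was 1.81 ± 0.26 (edgeR adjusted p = 0.00119). It was 2.80 in the deep and 0.83 in the shallow set, where Igf2 was not called. H19, the imprinted noncoding RNA next to Igf2, had 2236 to 18059 CPM over the myoblasts and 15294 to 39437 CPM over the myotubes. Its log2 change was 2.03 ± 0.32, with 3.12 in the deep and 0.94 in the shallow set, where it was not called. Irs1, the insulin receptor substrate, fell by 1.44 ± 0.14 and the adaptor gene Grb14 by 1.88 ± 0.26. Igfbp5 was not called (-0.36 ± 0.36), with a change of 0.78 in the deep and -1.50 in the shallow set. The number of members called higher was 5 without myoblast 2, 3 or 4, and 2 without a term for the set or over all 13 libraries, where the Igf2 and H19 calls were lost.

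Of 24 genes of the TGF-beta, activin, BMP and Hippo pathways 9 rose and 2 fell, with a median of 0.77. Tgfb3, a TGF-beta ligand, stood at 49.5 and 44.7 CPM in the deep and 132 and 152 CPM in the shallow myoblasts. It stood at 523, 484 and 455 CPM in the deep and 482 and 568 CPM in the shallow myotubes. The myotubes lay close together and above all myoblasts, with a log2 change of 2.63 ± 0.14 (edgeR adjusted p = 3.26e-05). Mstn, which encodes myostatin, rose by 2.48 ± 0.68, a call lost without any myoblast or myotube 4. Inhba rose by 2.68 ± 0.65, lost without myoblast 2 or 3 or myotube 4, and Ctgf by 3.73 ± 0.85, lost without myoblast 3 or 4. The number called higher was 5 without myoblast 2 or 4, without a term for the set or over all 13 libraries, and 4 without myoblast 3. Of 20 FoxO and atrophy genes 4 rose and 3 fell, shares near those of all genes, with a median of 0.08. Trim63, which encodes the ubiquitin ligase MuRF1 of the sarcomere, rose by 3.46 ± 0.23 from 4.52 to 23.9 CPM over the myoblasts to 55.8 to 166 CPM over the myotubes. Fbxo32, the other muscle ligase of atrophy, was not called (0.08 ± 0.27), and scaling by total counts alone turned its sign (-0.20). Foxo1 was not called (1.08 ± 0.39, edgeR adjusted p = 0.0588).

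Matrix genes as a list varied widely among the myotube libraries. Of 30 tested 11 were called higher and 4 lower, with a median of 0.75, but the number called higher was 2 without any 1 of the 4 myoblasts, 5 without myotube 4 and 6 without myotube 5. Postn, which encodes periostin, stood at 0.766 and 0.797 CPM in the deep and 4.94 and 5.71 CPM in the shallow myoblasts. It stood at 27.7, 55.8 and 34.6 CPM in the deep and 52.6 and 40.7 CPM in the shallow myotubes, without overlap, and its log2 change was 4.39 ± 0.27 (edgeR adjusted p = 3.66e-05). The collagen gene Col1a1 was at most 1.05 CPM in myoblasts and 0.658, 27.5, 76.8, 16.2 and 3.37 CPM in myotubes 1 to 5, so that myotube 1 was level with the myoblasts. Its call was lost without any myoblast or myotube 4. The laminin chain gene Lamb1 fell by 2.02 ± 0.23 and the protease inhibitor gene Timp1 by 2.19 ± 0.47. The log2 change of Timp1 was -3.90 in the deep set and -0.48 in the shallow set, where it was not called. The tenascin gene Tnc stood at 920 to 2215 CPM in the myoblasts and at 48.2, 549, 64.4, 193 and 671 CPM in myotubes 1 to 5. Its log2 change of -2.35 ± 0.73 was -3.32 without myotube 2, and the call was lost without any myoblast or myotubes 3, 4 or 5.

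Secreted factors and marker genes of other cells were also read. Of 22 cytokine genes 5 fell and 1 rose. The colony-stimulating factor gene Csf1 fell by 2.54 ± 0.39, and the stress cytokine gene Gdf15 by 2.94 ± 0.41, or 3.86 without myotube 4. Cxcl12, a chemokine, fell by 3.88 ± 0.76, or 4.93 without myotube 2. Markers of fibroblasts had 1 of 10 tested members called higher and summed to 320 to 662 CPM in myoblasts and 349 to 1004 CPM in myotubes. Endothelial (sum 5.44 to 12.02 CPM), macrophage (3.18 to 13.6 CPM), Schwann cell (1.50 to 16.8 CPM), adipocyte (1.59 to 6.64 CPM) and erythroid markers (1.10 to 4.25 CPM) were low in all 9 libraries. Adipoq, Plin1, Cidec, Emcn, Tie1, Tyrobp, Cd52, Hba-a1 and Hbb-b1 were too low to be tested. Of 8 smooth muscle and pericyte markers 6 rose and 1 fell, and their sum was 102 to 468 CPM in myoblasts and 2305 to 4470 CPM in myotubes. Most of it was Acta2, the smooth muscle actin that early myotubes also express. It stood at 79.2 and 76.8 CPM in the deep and 316 and 373 CPM in the shallow myoblasts, and at 2839, 4244 and 3101 CPM in the deep and 2082 and 2061 CPM in the shallow myotubes. Pdgfrb, a pericyte receptor gene, was at most 0.241 CPM in myoblasts and 0, 77.0, 11.9, 10.4 and 5.16 CPM in myotubes 1 to 5. The part of such cells in the matrix changes was not tested.

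The largest changes of single genes were found with a threshold of 10 CPM in the higher stage. C1qtnf3, a secreted C1q-related protein, stood at 32.1 and 32.2 CPM in the deep and 117 and 121 CPM in the shallow myoblasts. It stood at 1925, 1334 and 1849 CPM in the deep and 1220 and 1134 CPM in the shallow myotubes. Even the lowest myotube was far above the highest myoblast, with a log2 change of 4.52 ± 0.19 (edgeR adjusted p = 1.73e-05). Cyp1b1, a cytochrome P450, rose from at most 0.241 CPM to 4.68 to 47.4 CPM (7.15 ± 0.85, or 6.54 without myotube 2). Adamtsl2, a matrix protein, rose from at most 3.91 CPM to 28.2 to 259 CPM (4.92 ± 0.69, or 3.77 without myotube 5). Wisp2, Islr, Col6a3 and Meg3 were also among the 10 with the largest rise, and each call was lost without at least 1 library. Wisp2 stood at 57.8 CPM in myotube 2 and at most 3.58 CPM in the others. Islr stood at 78.1 CPM in myotube 2 against at most 8.73 CPM, and its call was lost without any myoblast or myotube 5. For Col6a3 the call was lost without any myoblast or myotube 4, for Meg3 without any myoblast, and for Wisp2 without myoblast 1, 3 or 4 or myotube 5.

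Among the largest falls, Spp1, which encodes the secreted phosphoprotein osteopontin, stood at 8716 and 9303 CPM in the deep and 4216 and 2556 CPM in the shallow myoblasts. It stood at 106, 198 and 166 CPM in the deep and 617 and 532 CPM in the shallow myotubes. All myotubes were below all myoblasts, and the log2 change was -4.20 ± 0.29 (edgeR adjusted p = 5.37e-05). It also had the largest loss in CPM of any called gene. Il33, an alarmin cytokine, stood at 938 and 946 CPM in the deep and 119 and 76.2 CPM in the shallow myoblasts and at 5.59 to 14.9 CPM in the myotubes (-5.00 ± 0.25). The neurofilament gene Nefl fell from 31.4 to 374 CPM to at most 3.07 CPM (-6.60 ± 0.57), the hedgehog-binding protein gene Hhip by 5.00 ± 0.43 and the peptide hormone gene Apln by 5.30 ± 0.49. Osbp2, an oxysterol-binding protein gene, fell by 4.70 ± 0.25 and the mast cell protease gene Mcpt8 by 4.55 ± 0.45. Gzme, a granzyme, fell by 4.58 ± 0.48 from 16.7 to 61.7 CPM to at most 3.84 CPM. Its near copy Gzmd stood at 8.19 to 26.0 CPM in myoblasts, at 0.167 to 0.548 CPM in the deep myotubes and at 0 in the shallow ones, and reads shared by these copies make both uncertain. The cytoskeletal genes Vim (-1.13 ± 0.23), Actb (-1.14 ± 0.23) and Actg1 (-1.36 ± 0.28) and Lgals1, which encodes the lectin galectin-1 (-1.15 ± 0.21), were, with Spp1 and Ccnd1, the 6 with the largest loss in CPM. Actg1 stood at 4964 and 5601 CPM in the deep but 92.0 and 119 CPM in the shallow myoblasts. Within the shallow set Vim (-0.62) and Actg1 (-1.32) were not called, nor was Actb within the deep set (-0.82). The Actb and Actg1 calls were lost without a term for the set and over all 13 libraries.

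Few genes were called in edgeR for a difference of the change between the sets, and 569 were called in DESeq2. Genes not called cannot be read as changing alike in both sets. The test of the shallow change minus the deep change called 35 genes (0.222%), 14 with a positive difference (0.089%) and 21 with a negative one (0.133%), and 2121 had an unadjusted p under 0.05. Kcnn4, a calcium-activated potassium channel, stood at 28.9 and 34.4 CPM in the deep and 0.602 and 0.601 CPM in the shallow myoblasts. It stood at 0.585, 1.00 and 1.57 CPM in the deep and 1.81 and 1.59 CPM in the shallow myotubes. The deep myoblasts alone were high, and the log2 change was -4.89 in the deep and 1.50 in the shallow set. Gfra1, a receptor of glial cell line-derived neurotrophic factor, stood at 10.97 and 11.7 CPM in the deep and 80.6 and 83.1 CPM in the shallow myoblasts. It stood at 122, 56.3 and 137 CPM in the deep and 38.1 and 12.7 CPM in the shallow myotubes, with log2 changes of 3.21 and -1.68. Igfbp2 and Lrrc17 also rose in the deep set (1.84 and 1.83) and fell in the shallow set (-1.72 for both). The muscle ankyrin gene Ankrd2 rose by 4.83 in the deep set and had a change of 1.01 in the shallow set. The number called was 157, 708 and 59 without myotubes 1, 2 and 3. Without a myoblast, or without myotube 4 or 5, 1 library is left in a stage-by-set group, and fewer genes were called. Such a fall cannot be told apart from a loss of precision.

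**Figure D5:**
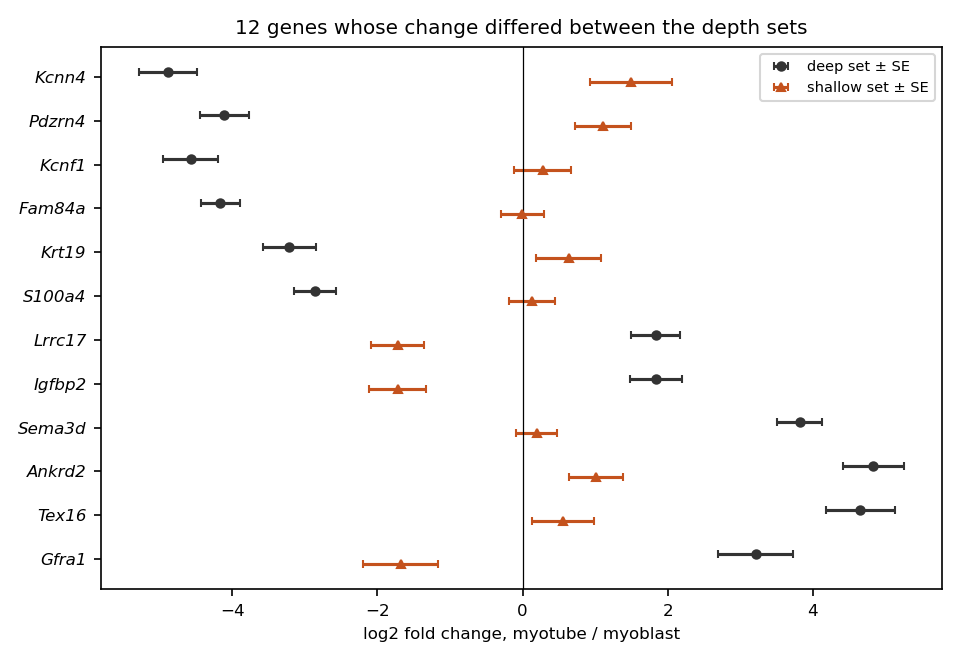
Log2 change from myoblast to myotube ± SE within the deep set and within the shallow set for 12 genes called in the test of the difference, the 6 with the largest difference in each direction among those at 10 CPM or more in a stage-by-set group, predicted and small RNA genes left out. Genes with larger differences that were not called are not shown. Kcnn4, Pdzrn4, Kcnf1, Fam84a, Krt19 and S100a4 fell in the deep set, with shallow changes from -0.00 to 1.50, and the other 6 rose in the deep set, by 1.83 to 4.83.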

How the data were processed

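RNA was sequenced from 13 libraries, of which 9 are wild type. Per the submitters' processing notes, the authors aligned reads with TopHat2 to mm9 and counted them with HTSeq. Versions, annotation, counting mode and strandedness: not given in the sources used here. Per the labels' protocols, ribosomal RNA was removed from samples whose integrity number was over 9. The deposited counts are raw, for 23366 gene symbols, of which 23206 matched a RefSeq symbol or synonym. The design text names fewer replicates than the table holds, and all 9 libraries were used as labelled.

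Counts were analysed with edgeR 4.0.16 in R 4.3.3. Genes were kept by filterByExpr over 4 stage-by-set groups (minimum count 10, minimum total 15), which left 15735. After TMM scaling (factors 0.77 to 1.20), a quasi-likelihood model with 4 means (5 residual degrees of freedom) gave the change within each set, its average and its difference. Tests were two-sided with Benjamini-Hochberg adjustment over all genes. SE is the log2 change divided by the square root of F. CPM are counts scaled to a common total after TMM, and log values used a prior count of 2. Total counts of 5.31 to 54.54 M set the precision, and replicates differed by more than counting noise (chi-square per degree of freedom 4.96 to 330.05). The script was tested on simulated data.

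Alternatives were the set as an additive term, no set term, all 13 libraries, each set alone, 2 other scalings, small RNA genes left out, 2 other filters, DESeq2 1.42.0, limma 3.58.1 voom, a robust fit, the replicate number as a block, and each library left out. The 31 gene lists and the genes described were chosen with earlier results of these data known. Genes were named by rule: the 10 largest changes per direction at 10 CPM or more with stages apart within each set, the 6 largest changes in CPM per direction, key genes of each list with the 3 largest changes per direction, and the 6 largest called differences between sets per direction at 10 CPM or more. Predicted and small RNA genes were left out of the first and last of these, and 1 gene listed under an accession-style symbol is not described. Further list members are named as examples. Some genes that the rule names are not reported here.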

Additional observations from a re-analysis of the deposited data

Results flagged for a closer look

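In groups of 4 or 5 libraries, 336 gene-by-stage groups were checked for a library far from the others, and 32 were found. The cut-off stands for 5% in a uniform group. These groups hold libraries of both sets and genes named partly for large changes, so the 32 cannot be read against that share. In 18 of the 32 the library was myotube 2, at its high end.

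In myotube 2 these were cell cycle genes: Mki67 at 237 CPM (next highest myotube 13.4 CPM), Ccnb1 at 92.0 CPM, Rbl1 at 29.1 CPM, Nuf2 at 27.2 CPM, Mcm10 at 21.8 CPM, Aurkb at 21.7 CPM, Cdca8 at 20.4 CPM, Prim1 at 19.6 CPM and the histone gene Hist1h2af at 15.1 CPM. They were also genes of other kinds: Kirrel at 81.6 CPM, Islr at 78.1 CPM, Dock1 at 74.9 CPM, Wisp2 at 57.8 CPM, Cdkn2b at 50.5 CPM, Heyl at 49.6 CPM, Col6a2 at 45.2 CPM, Pax7 at 45.1 CPM and Hdac7 at 34.9 CPM. The same library held the highest number of genes with a count, 20313 against 16208 to 17908 in the other myotubes. What set this library apart was not tested.

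Myotube 3 was high for Ttn at 66753 CPM, Rb1 at 503 CPM and Gzme at 3.84 CPM, and myotube 1 for Rrp12 at 307 CPM. Myotube 4 was high for Ccnd1 at 128 CPM, Areg at 3.02 CPM and AI593442 at 0.755 CPM. Myotube 5 was high for Ckb at 119 CPM, Mybpc2 at 22.0 CPM, Osbp2 at 4.56 CPM and Grb14 at 4.36 CPM. Among the myoblasts, myoblast 2 was high for Tcf3 at 174 CPM and for Wisp2 at 0.074 CPM, the others being at 0, and myoblast 4 was low for Id4 at 4.81 CPM.

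For 14 named genes the change differed between the sets in edgeR's test of the difference (adjusted p 0.0187 to 0.0451). The shallow minus the deep log2 change was 6.38 for Kcnn4, 5.23 for Pdzrn4, 4.85 for Kcnf1, 4.16 for Fam84a, 3.85 for Krt19 and 2.99 for S100a4. It was -4.89 for Gfra1, -4.10 for Tex16, -3.82 for Ankrd2, -3.62 for Sema3d, -3.57 for Igfbp2, -3.56 for Lrrc17, -2.98 for Unc45b and -2.42 for C1qtnf3. None of the 14 was tested in libraries outside these 9.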

How the results depend on the processing

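Of 168 named genes 159 were called on average. Over the alternatives and left-out libraries these gave 3318 values, of which 2925 kept the call, 393 lost it and 0 changed direction, and 76 genes were called throughout. Genes called (higher, lower) numbered 2534 (1164, 1370) without a set term, 3158 (1466, 1692) with all 13 libraries and 1992 (964, 1028) with the replicate number as a block. Scaling by total counts gave 4101 lower. With 1 library left out they ranged from 3055 to 6377 (1469 to 3176 higher, 1586 to 3279 lower). Sterol genes called higher numbered 7 without a set term, 9 with the block and 9 to 16 with 1 library left out. Contractile genes called higher numbered 48 without a set term and 59 with all 13 libraries, and cell cycle genes called lower 37, 54, and 28 to 85 with 1 library left out. With the block, histone, ribosome biogenesis and energy genes gave 22 lower, 4 lower and 7 higher. Within the deep set 2916 genes were called when it was fitted alone and 1505 to 6214 with 1 library left out. Within the shallow set the numbers were 3782 fitted alone, 2350 with DESeq2, 508 with limma voom and 0 to 2715 with 1 library left out. The difference between sets gave 61 calls with scaling by total counts, 195 without a filter, 569 with DESeq2, 22 with limma voom, 72 with a robust fit and 0 to 708 with 1 library left out.

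Among genes not called, Lrrc17 changed sign to -0.67 without a set term, -0.65 with all 13 libraries and -0.20 with total counts, and ranged from -0.0921 to 0.2149 with 1 library left out. Igfbp2 went to -0.18 with total counts and ranged from -0.0933 to 0.1769, and Fbxo32 went to -0.20 and ranged from -0.17 to 0.25. The median of the CDK inhibitor list within the shallow set ranged from -0.3729 to 0.0013 with 1 library left out. The cause of these shifts was not tested.

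The replicate numbers are shared by the stages, but same-numbered libraries did not all deviate together (r of 0.42, 0.53, -0.42 and 0.54), following the sets instead, and not every library correlated best with its own number. The numbers were not read as pairs, and the loss of calls under the block is no sign of a weaker change. Depth limits the shallow libraries, where 1 count is worth the most CPM, so that genes under a few CPM have wide errors there.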

Other observations

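The other genes whose change differed between the sets, read after their values were seen, include muscle genes that were low in the deep myoblasts. Fndc5, which encodes the precursor of irisin, stood at 12.1 and 11.3 CPM in the deep and 77.6 and 74.7 CPM in the shallow myoblasts, and at 217 to 292 CPM in the deep and 336 and 344 CPM in the shallow myotubes. It rose within both sets, by 4.49 and 2.16 on the log2 scale. Srpk3, a muscle kinase gene controlled by MEF2, rose by 4.01 in the deep and 1.44 in the shallow set. Gatm, the first enzyme of creatine synthesis, rose by 3.53 and 1.52, and the adenosine receptor gene Adora1 by 4.86 and 2.11. Stac3, a protein of the calcium channel complex, rose by 2.80 and 0.81. In the opposite direction, Btbd11 fell from 146 and 133 CPM to 8.90 to 12.3 CPM in the deep set and from 22.5 and 18.3 CPM to 11.6 and 7.14 CPM in the shallow set.

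The small nucleolar RNA genes Snord57 and Snord87, of a class that guides the modification of ribosomal RNA, were counted mainly in the shallow libraries. Snord57 stood at 852 and 865 CPM in the shallow myoblasts and 1849 and 1910 CPM in the shallow myotubes, a log2 change of 1.13, and at most at 1.04 CPM in the 5 deep libraries. Snord87 stood at 262 and 252 CPM and at 1168 and 1121 CPM in the same groups, a log2 change of 2.16, and at most at 0.873 CPM in the deep libraries. Both were called higher within the shallow set (edgeR adjusted p = 0.0425 and 0.00591). Within the deep set, at these low levels, Snord57 was called lower (log2 change -2.07, edgeR adjusted p = 0.00345) and Snord87 was not called (-0.75).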
